A study of Homo sapiens with 6 samples.

Results

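The respiratory chain genes of SW872 cells are described here, with the genes of mitochondrial DNA set beside those of the nucleus. Members were taken from the gene count table by name: the NDUF, SDH, UQCR, COX4 to COX8 and ATP5 families, and the MT-ND, MT-CO, MT-CYB and MT-ATP genes. Of 57773 genes in the table, 232 matched these names, 130 of them were left out because their names marked pseudogenes, readthrough products or antisense genes, and 102 remained. MT-ATP6 and MT-ATP8 were kept, since the ending of their names is a subunit number and not the mark of a pseudogene. The 102 members comprised 13 mitochondrial-encoded genes (7 of complex I, 1 of complex III, 3 of complex IV and 2 of complex V) and 89 nuclear genes (40 of complex I, 5 of complex II, 9 of complex III, 17 of complex IV and 18 of complex V). Names were distinct for 98, as NDUFA7, NDUFB8, SDHD and UQCR11 each stood under 2 identifiers. ATP5S, ATP5SL and ATP5L2 carry a family name without being established subunits, and NDUFA4, grouped here by its name with complex I, is now known as a subunit of complex IV. NDUFA4L2, a relative of NDUFA4, was likewise grouped with complex I by its name alone.

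SW872 is an established human liposarcoma cell line. Of the 6 libraries, 3 came from cells exposed to 18 μM apatinib, an inhibitor of the tyrosine kinase VEGFR2, for 24 h, and 3 from cells with no treatment (control); whether the controls received the solvent was not given in the sources used here. Both groups were the same line in the same medium, RPMI-1640 with fetal bovine serum, and RNA was sequenced from the whole culture. The study's methods call the samples of a group biological replicates, but neither they nor the labels say whether each was a culture of its own, so the p-values measure the spread between these samples. Fewer cells and less RNA per cell cannot be told apart.

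The respiratory chain moves electrons from NADH and succinate to oxygen through complexes I to IV and pumps protons across the inner mitochondrial membrane. Complex V, the ATP synthase, uses the proton gradient to make ATP. Mitochondrial DNA encodes a small set of core subunits, transcribed as long precursors from both strands and cut at the transfer RNAs, while all other subunits, including all of complex II, are nuclear genes. The nuclear factors NRF1 and GABPA (the DNA-binding subunit of NRF2, of the ETS family) are known to activate many nuclear subunit genes, and TFAM packages mitochondrial DNA and starts its transcription.

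Promoters of the nuclear members were searched for letters known to be bound by these factors and by YY1. RefSeq promoter windows (GRCh38.p14, 250 bases before to 50 after the start) were matched to 67 of the 89 nuclear members. The NRF1 letters GCATGCGC were found on either strand in 14 of 67 (20.9%), against 3.68% of all 27305 symbols in the table. The ETS letters CCGGAAGT were found in 11 (16.4%), against 4.95%, and the YY1 letters AAGATGGCG in 9 (13.4%), against 2.14%. At least 1 of the 3 was present in 27 members (40.3%), against 9.95% of all symbols. The TATA letters TATAAA were in 7 (10.4%), against 13.99%. The YY1 letters lay mostly after the start: in the 250 bases before it they were left in 1 member (1.49%, against 0.784% of all symbols). The 3 windows below, from 150 bases before to 5 after the start, are shown because they carry the ETS letters, and COX5B also the NRF1 letters, all in capitals, upstream of subunits of complexes IV and V. They read on the strand of the gene:
COX5B, chr2:97645912-97646066, plus strand: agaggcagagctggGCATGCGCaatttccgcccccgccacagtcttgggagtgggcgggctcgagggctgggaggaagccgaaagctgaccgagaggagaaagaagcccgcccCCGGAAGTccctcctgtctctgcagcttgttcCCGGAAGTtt
COX8A, chr11:63974470-63974624, plus strand: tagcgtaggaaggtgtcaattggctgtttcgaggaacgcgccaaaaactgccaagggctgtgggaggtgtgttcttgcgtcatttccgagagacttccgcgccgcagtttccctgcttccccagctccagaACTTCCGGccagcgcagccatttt
ATP5H, chr17:75046965-75047119, minus strand: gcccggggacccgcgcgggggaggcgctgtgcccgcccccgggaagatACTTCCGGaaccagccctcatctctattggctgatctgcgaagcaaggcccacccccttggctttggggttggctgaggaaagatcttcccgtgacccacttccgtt
COX5B held the NRF1 letters 136 bases before the start and the ETS letters at 37 and 5 bases before it, whereas COX8A and ATP5H held the ETS letters on the opposite strand, 19 and 102 bases before the start. A match is a description of letters and not a measured binding site. NDUFA4L2 was not in the table.

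Total gene counts ran from 17043314 to 22067558 per library. Counts per gene were tested with edgeR's quasi-likelihood test after scaling by trimmed mean of M-values (TMM), and a gene was called when its false discovery rate (FDR) over the 16290 genes tested was under 0.05 and its log2 fold change above 0.5 in size. Controls 1 and 2 were far closer to each other (chi-square per gene 2.27) than any other pair of a group (18.2 to 44.5), yet differed by more than sampling noise. With these controls summed as 1 sample, 292 genes were called in place of 1829. Apatinib replicate 2 stood apart, being the lowest of the 6 libraries for 43 of the 78 nuclear members tested and for 22.2% of all genes tested. Markers passed the filter on low counts as follows: all 5 of MDM2, CDK4, HMGA2, FRS2 and YEATS4, amplified in many liposarcomas (median log2 fold change -0.25, 4 of 5 below 0, none called by edgeR or DESeq2, 1 at an unadjusted p under 0.05), and 6 of 6 mesenchymal genes (median 0.33, 5 of 6 above 0, none called by edgeR or DESeq2, 2 with an FDR under 0.05, among them COL1A2 at 0.46, FDR 0.0404). Of 10 adipocyte genes, 4 passed (median 0.35, 3 above 0 and 1 below, at -0.37). LPL was called higher, by 0.83 on the log2 scale (FDR 0.0269), a call lost under 5 of 19 alternatives. The filter was also passed by 2 of 5 epithelial genes, 1 of 6 muscle genes and none of 5 leukocyte genes.

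Few genes of the chain passed the test. Of 91 members that passed the filter on low counts, 2 were called: NDUFA4L2 and MT-ATP8, both higher with apatinib, and MT-ATP8 only on the scale of counts (below). That is 2.20% of the members, against 11.2% of all genes tested (5.8% higher and 5.43% lower). No member was called lower in this edgeR fit. Among the 19 alternatives run, UQCRB was called lower under 9, DESeq2 among them, and NDUFA5 under 2. In all, 10 members had an unadjusted p under 0.05 (11.0%, against 30.5% of all genes), 4 of them lower (MT-CO3, NDUFA5, UQCRB and COX6C). The median log2 fold change was 0.08 over the 13 mitochondrial-encoded members, 0.03 over the 78 nuclear members tested and 0.00 over all genes. For 51 of the 91 members (44 nuclear and 7 mitochondrial-encoded), the 95% confidence interval of the change lay within 0.5 log2 units on either side of no change, and for 86 it lay within 1.

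**Figure D1:**
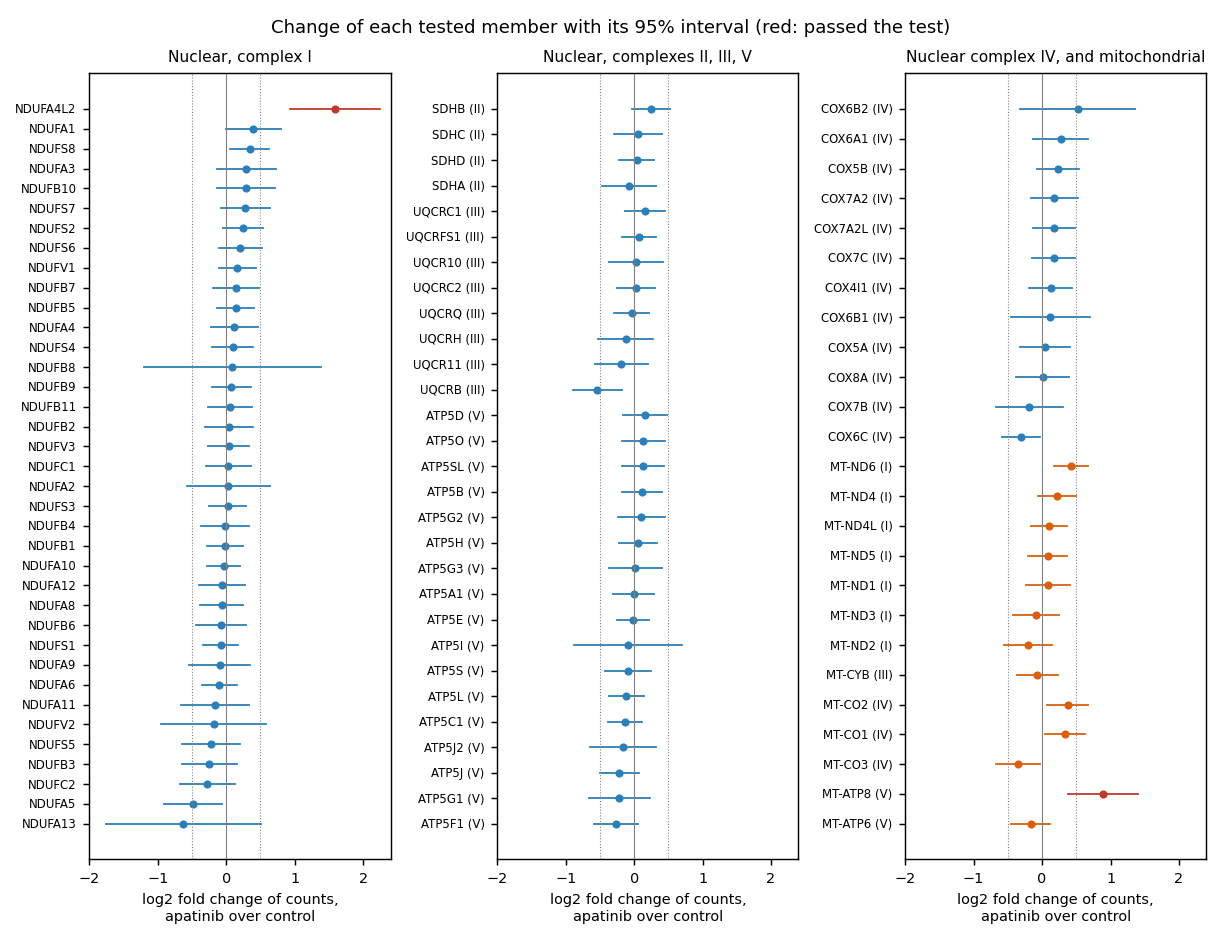
Log2 fold change of counts, apatinib over control, with its 95% confidence interval, for each of the 91 tested members (roman numeral: complex). Dotted lines mark 0.5 on either side. NDUFA4L2 at 1.59 and MT-ATP8 at 0.89, in red, are the members that passed the test.

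The levels differed far more between the genomes than between the groups. On the scale of FPKM (fragments scaled by gene length and by library size, a level per length), the 13 mitochondrial-encoded members had a median over genes of 2986 and ran from 613 for MT-ND1 to 7944 for MT-CO2. The 89 nuclear members had a median of 36.6. ATP5B, the catalytic beta subunit of the ATP synthase, was the highest nuclear member at 288 FPKM, followed in complex IV by COX8A at 213 FPKM. By complex, the nuclear median was 30.5 FPKM in complex I, 52.3 in complex II, 43.5 in complex III, 38.0 in complex IV and 49.9 in complex V.

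**Figure D2:**
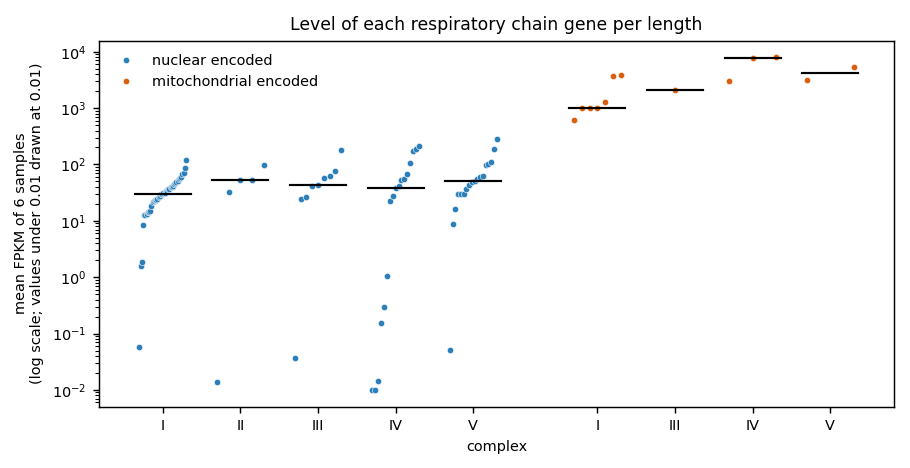
Mean FPKM over the 6 samples (log axis) of each member, by complex and genome of origin; black lines are medians over genes. Mitochondrial-encoded members lie between 613 and 7944 FPKM, above every nuclear member, the highest of which is ATP5B at 288.

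Among the mitochondrial-encoded genes, those of the cytochrome oxidase core differed in sign, and none of the 3 was called (all 3 had an unadjusted p under 0.05, and DESeq2 called 0). MT-CO1, which holds the oxygen-reducing centre, had 20094, 16173 and 17663 CPM (counts scaled to library size) with apatinib and 13533, 14307 and 14979 in controls. Every apatinib library was above every control, but the log2 fold change of 0.33 ± 0.13 (SE) did not pass (FDR 0.123). MT-CO2, which receives electrons from cytochrome c, had 9463, 8008 and 8677 CPM with apatinib and 6215, 6448 and 7541 CPM in controls. Its groups did not overlap either, and its change of 0.37 ± 0.13 did not pass (FDR 0.0902). By DESeq2 the FDR of MT-CO2 was 0.0376, at a change of 0.38, below the fold limit for a call. Without apatinib replicate 2 the FDR was 0.0388 for MT-CO1 and 0.0450 for MT-CO2, again below the fold limit. With any other library left out it was 0.155 to 0.376 for MT-CO1 and 0.0678 to 0.335 for MT-CO2. MT-CO3, the remaining core subunit, had 3242, 2462 and 2740 CPM with apatinib and 3216, 3542 and 4031 CPM in controls, a log2 difference of -0.35 ± 0.14 (FDR 0.125). On CPM the groups overlapped, as apatinib replicate 1 lay just above control replicate 1, whereas on FPKM every apatinib library (2950, 2408 and 2623) was below every control (3067, 3235 and 3636).

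Set against each other within a library, where scaling cancels, these genes did not overlap between the groups. The ratio of MT-CO1 to MT-CO3 counts was 6.20, 6.57 and 6.45 with apatinib and 4.21, 4.04 and 3.72 in controls, a mean of 6.40 ± 0.19 (SD, n = 3) against 3.99 ± 0.25. MT-CO2 to MT-CO3 was 2.92, 3.25 and 3.17 with apatinib against 1.93, 1.82 and 1.87. These ratios were 1.61 and 1.66 times higher with apatinib, and from FPKM they were 1.59 and 1.63 times higher. They were singled out after their values were seen and carry no test. A ratio shows unequal change and not which gene changed.

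MT-ND6, a complex I subunit and the only protein gene on the opposite strand of mitochondrial DNA, had 530, 543 and 543 CPM with apatinib and 381, 437 and 382 CPM in controls. It was higher in every apatinib library by 0.43 ± 0.11 on the log2 scale, with an FDR of 0.0350 but a fold below the limit for a call (12.7% of all genes had an FDR under 0.05). The FDR was above that limit when any one library other than apatinib replicate 2 was left out, from 0.0565 without apatinib replicate 3 to 0.184 without control replicate 1. It was 0.134 with controls 1 and 2 summed, 0.0969 with the replicate block and 0.0604 with limma on FPKM, but 0.0053 by DESeq2, and with a correction for GC content, added after the data were seen, the gene was called (0.56, FDR 0.0090). MT-TP, the proline transfer RNA gene on the same strand, rose from 20.5, 21.6 and 22.6 CPM in controls to 36.4, 38.1 and 31.8 CPM (log2 fold change 0.72 ± 0.13, FDR 0.0103). That call was lost without control replicate 1, without control replicate 2 and with both summed, with FDR values up to 0.0669. Whether strand was used in counting is not stated, so reads from the opposite strand cannot be told apart in either gene.

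The other complex I genes of mitochondrial DNA lay closer to no change. MT-ND4 differed by 0.22 (FDR 0.280), MT-ND4L by 0.10 (FDR 0.612), MT-ND5 by 0.08 (FDR 0.703), MT-ND1 by 0.08 (FDR 0.745), MT-ND3 by -0.09 (FDR 0.724) and MT-ND2 by -0.21 (FDR 0.404), all on the log2 scale of counts. On FPKM every apatinib library was above every control for MT-ND4 and MT-ND4L, without passing limma (FDR 0.287 and 0.426). MT-ND1, MT-ND2, MT-ND3 and MT-ND5 overlapped on FPKM. MT-CYB, the cytochrome b of complex III, had 3498, 2914 and 3541 CPM with apatinib and 3193, 3344 and 3933 CPM in controls. Its groups overlapped, at -0.07 ± 0.14 (FDR 0.760). MT-ATP6, the proton channel subunit of complex V, differed by -0.17 ± 0.13 (FDR 0.412).

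MT-ATP8, the other mitochondrial-encoded subunit of complex V, overlaps MT-ATP6 in the genome. Its counts were low beside its FPKM, worth 0.005 kb of sequence for a gene of 0.207 kb, for a reason not tested. The apatinib libraries held 288, 429 and 356 counts of it and the controls 266, 152 and 203, which passed the test (log2 fold change 0.89 ± 0.23, FDR 0.0326). Its FPKM, of 3028, 2876 and 3225 with apatinib and 3011, 3019 and 3463 in controls, overlapped, with a log2 ratio of group means of -0.06. The call on counts was also lost without apatinib replicate 2 (FDR 0.0667), without control replicate 2 (FDR 0.134) and without apatinib replicate 3, so the direction rests on the scale used.

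The ribosomal RNAs of the mitochondrion lie upstream of these genes and are the start of the same long transcript. MT-RNR2, the large one, rose with apatinib, from 2349, 2534 and 2659 CPM to 3973, 4501 and 3595 CPM (log2 fold change 0.68 ± 0.13, FDR 0.0124). MT-RNR1, the small one, had 939, 695 and 759 CPM against 574, 667 and 705 CPM, with the groups overlapping (0.30 ± 0.14, FDR 0.184). The MT-RNR2 call was lost without control replicate 1 (FDR 0.0820) or control replicate 2 (FDR 0.0739) and with both summed (FDR 0.0768), with the value between 0.60 and 0.80 under every alternative run. Only 3 of the 24 mitochondrial transfer and ribosomal RNA genes passed the filter on low counts.

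**Figure D3:**
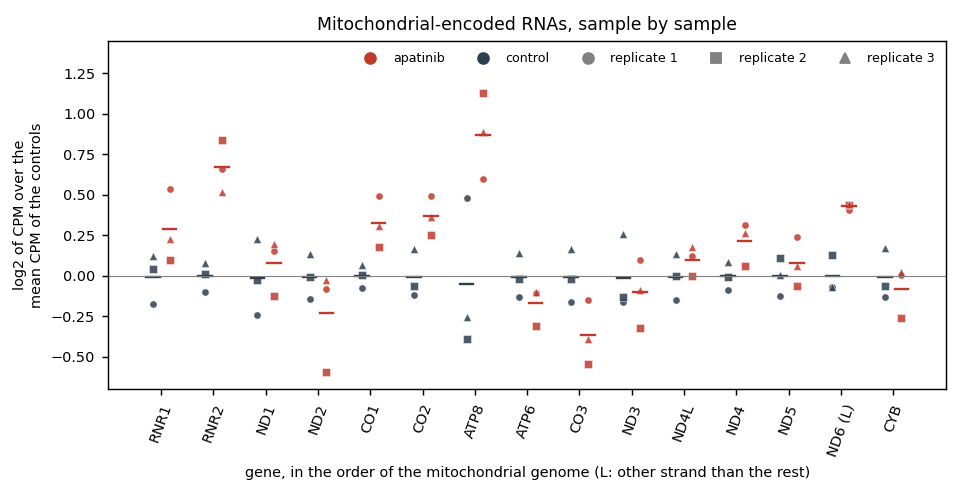
Log2 of CPM over the mean of the controls for the 13 mitochondrial-encoded protein genes and both ribosomal RNAs, in their order along mitochondrial DNA. Each point is a sample and each short line a mean of 3 samples. RNR2, CO1, CO2, ATP8 and ND6 have every apatinib sample above every control sample.

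As a share of all gene counts, the 13 protein genes of mitochondrial DNA took 5.22%, 4.62% and 5.06% with apatinib and 4.17%, 4.38% and 4.77% in controls. The apatinib mean was 4.96% ± 0.31 and the control mean 4.44% ± 0.31 (SD, n = 3), with apatinib replicate 2 below control replicate 3. Nuclear members together took 0.636%, 0.512% and 0.599% against 0.563%, 0.553% and 0.603%, so apatinib replicate 2 was the lowest of all libraries.

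NDUFA4L2, grouped with complex I by its name alone, was the nuclear member called. It encodes a relative of NDUFA4 known as a target of the hypoxia-inducible factor HIF-1 and held to reduce complex I activity in low oxygen. Its counts were 81, 148 and 78 in the apatinib libraries and 37, 41 and 31 in the controls, or 4.68, 8.30 and 4.47 CPM against 2.14, 2.27 and 1.41 CPM. The groups did not overlap, and the rise was 3.02-fold (log2 fold change 1.59 ± 0.30, 95% interval 0.94 to 2.25, FDR 0.0117). The call held under each of the 19 alternatives run, with FDR values up to 0.0432, and the change was 1.26 without apatinib replicate 2, the highest library. On log2(FPKM + 1), a scale that understates changes of low genes, it was 0.97, the lowest value of the 19. Its level stayed low, at a mean of 1.84 FPKM over the 6 samples. NDUFA4, at a mean of 31.2 FPKM, had 115, 73.4 and 98.0 CPM with apatinib and 81.6, 85.6 and 95.8 CPM in controls, and did not pass (0.12 ± 0.16, FDR 0.650).

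The other 36 tested nuclear genes grouped with complex I did not pass, and the median over all 37 was 0.03. NDUFS8, an iron-sulfur subunit of the arm that takes up electrons, had 104, 83.4 and 92.8 CPM with apatinib and 71.8, 67.6 and 81.8 CPM in controls (0.34 ± 0.13, FDR 0.103), with no overlap. With the GC correction its difference was 0.18. NDUFA5, a small accessory subunit, had 39.1, 34.7 and 52.2 CPM against 68.1, 63.8 and 44.6 CPM, a log2 difference of -0.49 ± 0.19 (FDR 0.111). With the GC correction that difference was -0.04, whereas NDUFA5 was called lower without apatinib replicate 3 and without control replicate 3. NDUFA1, another accessory subunit, differed by 0.40 ± 0.18 (FDR 0.168). NDUFS1, the largest subunit, differed by -0.08 (FDR 0.675). NDUFA13 had the lowest change in counts, at -0.63 ± 0.51 (FDR 0.441), on 7 to 36 counts per library. On FPKM it went the other way, with 42.1, 27.8 and 33.6 against 23.9, 24.3 and 27.6, so its direction depends on the scale.

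Complex II, which oxidises succinate, showed no called member by edgeR, DESeq2 or limma, and 0 of 4 tested had an unadjusted p under 0.05. SDHB, its iron-sulfur subunit, had 63.8, 50.5 and 53.8 CPM with apatinib and 47.6, 47.0 and 46.9 CPM in controls, without overlap (0.25 ± 0.13, FDR 0.207). SDHA, the flavoprotein, had 380, 219 and 309 CPM against 294, 304 and 357 CPM, with apatinib 1 and 2 at the ends of the range (-0.07 ± 0.18, FDR 0.823). The membrane anchors SDHC and SDHD differed by 0.05 (FDR 0.859) and 0.03 (FDR 0.877).

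In complex III, UQCRB, a small subunit near the quinone site, came closest to a lower call. It had 44.4, 30.6 and 46.9 CPM with apatinib and 57.7, 64.0 and 55.3 CPM in controls. All apatinib libraries were below all controls, at -0.54 ± 0.16 on the log2 scale (95% interval -0.89 to -0.18), and the FDR was 0.0518. It was called under 9 of the 19 alternatives, whereas with the GC correction the difference was -0.20. UQCRC1, a core subunit encoded in the nucleus, differed by 0.16 (FDR 0.458), UQCRH, the hinge protein, by -0.12 (FDR 0.692), UQCR11 by -0.19 (FDR 0.507) and the Rieske protein UQCRFS1 by 0.07 (FDR 0.723). On FPKM UQCR11 went the other way, with a log2 ratio of group means of 0.09.

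The nuclear genes of complex IV had a median of 0.15 over 12 tested, and of 0.11 with the GC correction. None was called by edgeR, DESeq2 or limma, and 1 (COX6C) had an unadjusted p under 0.05. COX6C, an accessory subunit, had 62.5, 50.0 and 62.9 CPM with apatinib and 72.1, 71.1 and 73.6 CPM in controls, lower in every library (-0.31 ± 0.13, FDR 0.127, and -0.14 with the GC correction). COX6B1 and COX7B show how far apatinib replicate 2 could lie from its group: COX6B1 had 79.2, 31.6 and 56.7 CPM with apatinib against 46.6, 47.0 and 60.5 CPM, and COX7B had 76.4, 37.0 and 72.7 CPM against 68.4, 72.1 and 71.0 CPM. Their changes were 0.12 ± 0.26 (FDR 0.797) and -0.18 ± 0.22 (FDR 0.612). Without that library the median over the complex was 0.31, and no gene in it was called.

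Several subunits of complex IV exist as tissue forms, and this line used the general ones. COX4I1 stood at a mean of 174 FPKM while COX4I2, the form of lung, was listed at 0 in all 6 samples. COX7A2 stood at 67.5 FPKM and the heart and muscle form COX7A1 at 0.299 FPKM. COX6A1 stood at 105 FPKM and the muscle form COX6A2 at 0.156 FPKM. COX8A was at 213 FPKM, while COX8C, with 1 count in all, was at 0.0143 FPKM and COX7B2 at 0. The testis form COX6B2, at 1.05 FPKM, was the only one of these to pass the filter, with a change of 0.52 ± 0.38 (FDR 0.384). Of the general forms, COX4I1 differed by 0.13 (FDR 0.587), COX6A1 by 0.27 (FDR 0.339), COX7A2 by 0.18 (FDR 0.478) and COX8A by 0.01 (FDR 0.981). Among other genes with COX names, COX5A differed by 0.04 (FDR 0.887), COX5B by 0.23 (FDR 0.293) and COX7A2L by 0.17 (FDR 0.442).

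The nuclear genes of the ATP synthase had a median of -0.02 over 17 tested, with none called by edgeR, DESeq2 or limma and 0 at an unadjusted p under 0.05. ATP5B had 849, 651 and 715 CPM with apatinib and 664, 648 and 732 CPM in controls, which overlapped (0.12 ± 0.13, FDR 0.587). On CPM, 3 of the 17 genes (ATP5F1, ATP5J and ATP5C1) were lower in every apatinib library without passing, against 15.7% of all genes tested. On FPKM the groups overlapped for ATP5F1 and ATP5C1. ATP5F1, of the peripheral stalk, was at -0.27 (FDR 0.254), ATP5J, of the same stalk, at -0.22 (FDR 0.286) and ATP5C1, of the central stalk, at -0.13 (FDR 0.459). ATP5D and ATP5O, of the central and the peripheral stalk, differed by 0.15 (FDR 0.518) and 0.13 (FDR 0.566). The 3 genes for the proton-carrying c subunit, ATP5G1, ATP5G2 and ATP5G3, differed by -0.22 (FDR 0.505), 0.11 (FDR 0.690) and 0.01 (FDR 0.968).

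Counting members whose groups did not overlap in CPM gave 4 mitochondrial-encoded genes higher and 0 lower, and 3 nuclear genes higher and 5 lower. Of all genes tested, 17.5% were higher and 15.7% lower in this way. The nuclear genes were NDUFA4L2, NDUFS8 and SDHB on the higher side and UQCRB, COX6C, ATP5F1, ATP5J and ATP5C1 on the lower side. Without apatinib replicate 2 the median log2 fold change became 0.16 over mitochondrial-encoded and 0.14 over nuclear members.

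The 11 members that failed the filter had at most 49 counts over the 6 samples and were COX4I2, COX6A2, COX7A1, COX7B2, COX8C, ATP5L2, both NDUFA7 genes and the second identifiers of NDUFB8, SDHD and UQCR11. Counts and FPKM did not always go together, for reasons not tested. In 12 tested members the counts were worth under 0.2 kb of sequence at their FPKM, a limit set after seeing the values: MT-ND4L, MT-ATP8, NDUFA11, NDUFA13, NDUFB8, NDUFV2, UQCR11, COX6A1, COX8A, ATP5I, ATP5J2 and ATP5O. A median of 21.6% of their exon bases is shared with exons of other genes in GENCODE 29, against 0% in the other tested members. In 8 members the log2 change differed by more than 0.2 between the scales, 5 of them among these 12.

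**Figure D4:**
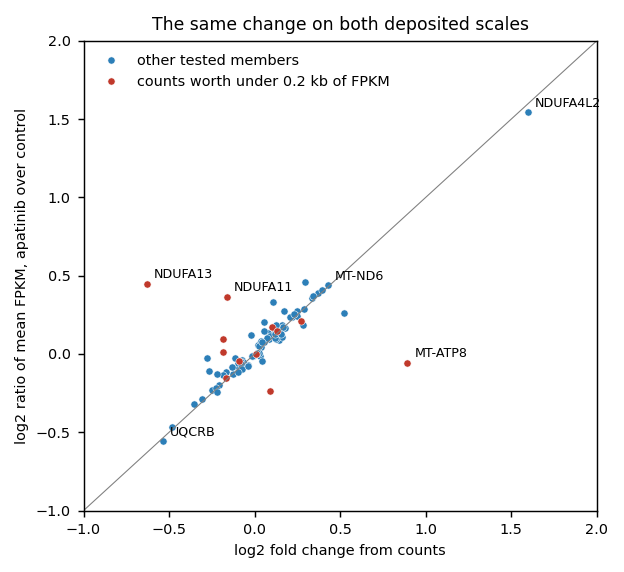
Log2 fold change from counts (x axis) against the log2 ratio of mean FPKM (y axis), apatinib over control, for the 91 tested members; the line marks equality. MT-ATP8 and NDUFA13 (red: counts worth under 0.2 kb) lie far from the line, and NDUFA4L2 and UQCRB lie on it.

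Further lists hold genes that express mitochondrial DNA or work beside the chain, and the count called in each is to be set against the 11.2% called of all genes tested. In the machinery of mitochondrial DNA expression, 2 of 29 tested genes were called, both lower, and the median was -0.25 (-0.12 with the GC correction). At an unadjusted p under 0.05, 10 of the 29 were lower, against 2525 of all 16290 genes. TFAM, the packaging and transcription factor of mitochondrial DNA, fell from 56.1, 60.0 and 47.2 CPM in controls to 25.7, 29.1 and 37.7 CPM with apatinib (log2 fold change -0.82 ± 0.16, FDR 0.0134). MTERF, which binds mitochondrial DNA at a termination site, fell from 25.0, 21.0 and 14.3 CPM to 7.97, 9.09 and 11.98 CPM (-1.05 ± 0.22, FDR 0.0167). POLRMT, the mitochondrial RNA polymerase, had 94.7, 84.3 and 81.0 CPM against 68.8, 75.6 and 81.3 CPM and did not pass (0.20 ± 0.12, FDR 0.280).

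Of 14 tested regulators of mitochondrial biogenesis, 2 were called, TFAM again and GABPA, and the median was 0.01. At an unadjusted p under 0.05 there were 6, the 2 called and 4 that were higher without passing: ESRRA (0.36), PPARA (0.35), SIRT3 (0.30) and PPARD (0.29). GABPA fell from 82.3, 85.4 and 49.4 CPM in controls to 32.8, 35.3 and 45.7 CPM (-0.93 ± 0.21, FDR 0.0196), with control replicate 3 close to the apatinib libraries. NRF1 had 24.7, 22.7 and 20.7 CPM against 22.3, 22.3 and 26.9 CPM (-0.07 ± 0.14, FDR 0.767), YY1 differed by 0.01 (FDR 0.949), and the coactivator PPARGC1A by 0.10 (FDR 0.738). The members with the ETS letters in their promoters had a median change of -0.04 over 11 tested genes, those with the NRF1 letters 0.01 over 14, those with the YY1 letters 0.09 over 8, and those with none of the NRF1, ETS and YY1 letters 0.03 over 37. TFAM, MTERF and GABPA were lower in every apatinib library and remained negative under every alternative run. All 3 calls were lost without control replicate 1 (FDR 0.0629 for TFAM, 0.0823 for MTERF and 0.0862 for GABPA) or control replicate 2 and with both summed, those of MTERF and GABPA also without apatinib replicate 1 and with limma on FPKM. With GC correction the changes were -0.50, -0.65 and -0.52.

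**Figure D5:**
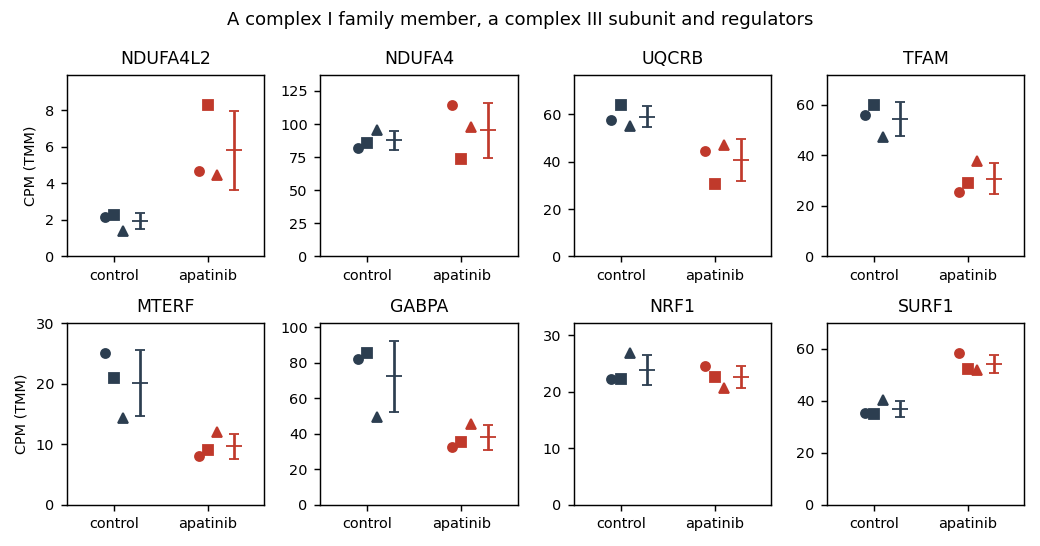
CPM in each of the 6 samples for NDUFA4L2, NDUFA4, UQCRB, TFAM, MTERF, GABPA, NRF1 and SURF1 (marker shape: replicate number; bars: mean and SD of 3 samples; each axis starts at 0). NDUFA4L2 and SURF1 are higher, and UQCRB, TFAM, MTERF and GABPA lower, in every apatinib sample, while NRF1 overlaps.

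Among 44 tested assembly factors, 1 was called higher and 1 lower. SURF1, which helps build complex IV, rose from 35.1, 35.0 and 40.3 CPM to 58.2, 52.2 and 51.8 CPM (0.55 ± 0.12, FDR 0.0194), and LYRM7, which holds the Rieske protein in the matrix before it enters complex III, fell from 142, 143 and 106 CPM to 77.8, 93.1 and 102 CPM (-0.52 ± 0.15, FDR 0.0464). The median of this list was 0.00. Among 6 subunits and carriers outside the name rule, cytochrome c (CYCS), which carries electrons from complex III to complex IV, fell from 123, 129 and 100 CPM to 73.3, 77.8 and 95.1 CPM (-0.52 ± 0.14, FDR 0.0405). In the tricarboxylic acid cycle, which feeds the chain, DLD and SUCLA2 were lower among 19 tested, by -0.52 and -0.57 (FDR 0.0412 for both). LYRM7, CYCS, DLD and SUCLA2 lay close to the limits, and each lost its call under between 9 and 12 of the 19 alternatives, SURF1 under 5.

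Of 74 mitochondrial ribosomal proteins, MRPL50 was called lower (-0.62, FDR 0.0405, and -0.18 with the GC correction) and the median was 0.02. None of 22 import genes was called by edgeR or DESeq2, with 5 at an unadjusted p under 0.05, TOMM7 at 0.40 (FDR 0.0436) and a median of -0.06. Outside the mitochondrion, 1 of 37 proteasome subunits was called (PSMA2, -0.90, FDR 0.0411; median -0.07) and, by edgeR, none of 85 cytosolic ribosomal proteins, whose median was 0.17, with 12 at an unadjusted p under 0.05, 0 called by DESeq2, 1 called by limma on FPKM (RPL37) and RPL30 at the smallest p (0.37, FDR 0.0550). None of 3 nuclear retained RNAs was called by edgeR or DESeq2 or had an unadjusted p under 0.05 (KCNQ1OT1, -0.53, FDR 0.191). In the marker lists, KRT8, an epithelial keratin, rose by 0.71 (FDR 0.0181), and the endothelial genes VWF and CDH5 went in opposite directions, by 1.52 (FDR 0.0412) and -1.23 (FDR 0.0247), at under 4 CPM in every library. MRPL50 and PSMA2 each lost the call under 8 of 19 alternatives, KRT8 under 4 of 19, VWF under 6 of 15 and CDH5 under 5 of 16. The part of the marker genes in the values above was not tested.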

How the data were processed

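Gene expression was measured by RNA sequencing in 6 libraries of SW872 cells. The authors deposited 1 table of raw gene counts and a table of FPKM for each sample. Per the labels, processing used CASAVA and STAR 2.7.1a with the build hg19. The counting program, its strand setting and the FPKM program are not given in the sources used here. One unlabelled value column was not used.

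Groups came from the treatment labels. Counts were analysed with edgeR 4.0.16 (filterByExpr, TMM, quasi-likelihood test, two-sided, Benjamini-Hochberg over 16290 genes) in R 4.3.3. CPM are TMM-scaled, SE and intervals come from the same fit, and FPKM are as the authors deposited them. The biological coefficient of variation was 0.149. Alternatives were DESeq2 1.42.0, limma 3.58.1 on the log2 of FPKM after adding 1 or 0.1, other scalings and filters, a replicate block, libraries left out, controls 1 and 2 summed, and length and GC corrections by loess. The tests of edgeR, DESeq2 and limma were checked on simulated counts with known changes. There limma on log2(value + 1) returned smaller fold changes than were simulated, and the tolerance of its check was widened after it had failed. Depth was 17043314 to 22067558 counts per library. The standard error of a member's log2 fold change ran from 0.11 to 0.59 (median 0.15).

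Members and gene lists were chosen with earlier results of these data known. Named genes were all mitochondrial-encoded members and ribosomal RNAs, SDHA to SDHD, and in the other complexes the called genes, those of extreme p, fold or level and the tissue forms. From each further list, up to 5 called genes or the gene of smallest p were named. NRF1, YY1, PPARGC1A, POLRMT, ESRRA, PPARA, SIRT3 and PPARD were named for context after their values were seen. Gene positions were not taken from GENCODE 29, whose build differs from hg19. It served for gene order, shared exons and GC content (97.1% of tested genes).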

Additional observations from a re-analysis of the deposited data

How the results depend on the processing

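The number of genes called was 1829 (945 higher, 884 lower) and depended on controls 1 and 2: with both summed it was 292 (207 and 85), and leaving out each replicate in turn it ran from 275 to 2593 (192 to 1101 higher, 83 to 1492 lower). The GC correction gave 577 lower. Mitochondrial-encoded members called numbered 1 (MT-ATP8), 0 with the controls summed, with limma on FPKM or without members whose counts were worth under 0.2 kb, 2, with MT-ND6, with the GC correction or by FDR alone, and 0 to 1 with a replicate left out. Nuclear members called numbered 1 (NDUFA4L2) and 2, with UQCRB, under DESeq2, RLE size factors, total counts, no filter, at least 10 counts in every sample and the length correction, and 1 to 3 with a replicate left out. MT-ATP8 was at -0.055 (log2) under both limma fits. Deviations of same-numbered samples from their group means had correlations of -0.26, 0.08 and -0.22. Whether samples of equal number were handled together is not stated, and these correlations cannot decide it. With the replicate block 2 nuclear members were called. Median changes moved by less than the spread between samples under all alternatives: 0.03 to 0.19 for mitochondrial-encoded and -0.04 to 0.14 for nuclear members with a replicate left out. The mitochondrial share stayed 1.08 to 1.16 times that of controls with a replicate left out. The YY1 letters fell from 13.4% to 1.49% of members in the 250 bases before the start. Of 72 named genes tested, none but MT-ATP8 changed sign among the calls. The GC correction and the 0.2 kb limit were added after the data were seen. The causes of these shifts were not tested. At this depth the widest standard errors were those of NDUFB8 and NDUFA13, 0.59 and 0.51.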
